A study of Mus musculus with 12 samples.

Results

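Mast cell genes were followed as a panel of 8: the granule proteases Cpa3, Mcpt4, Cma1 and Tpsb2, the receptors Kit, Fcer1a and Ms4a2, and the histamine-forming enzyme Hdc. They were matched by gene symbol, and all 8 were found among the 18996 genes of the RNA-seq count table. Paraspinal tissue was sequenced from 12 mice, which by the study's methods were BALB/c animals obtained at 5 to 7 weeks of age, with both sexes used in the study, and the labels name no transgene or drug for any group. The No operation group comprised 4 mice that gave paraspinal soft tissue without surgery. The SHAM group comprised 4 mice in which paraspinal soft tissue was removed but the lamina, the bony roof of the spinal canal, was left in place, and the Laminectomy group comprised 4 mice in which the lamina was excised. The tissue of both operated groups is labelled as paraspinal soft and scar tissue, and the sample titles name scar tissue. The study places these groups at day 7 after surgery. Each numbered sample was taken as 1 mouse, which the labels do not state. The operated groups differ from the control in the kind of tissue sampled as well as in the surgery, and these cannot be told apart.

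Mast cells arise from marrow precursors and mature in connective tissue, where they sit close to vessels and nerves. They store proteases, histamine and proteoglycan in granules and release them when IgE bound to its high-affinity receptor is cross-linked by antigen, or when other receptors are engaged. Their survival in tissue depends on Kit and on its ligand, stem cell factor. In whole tissue, fewer mast cells and less RNA per mast cell cannot be told apart.

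The counts summed to 16802988 to 18077863 per mouse, and levels are given as CPM, the count relative to the library total after scaling by the trimmed mean of M-values. A gene was called a differentially expressed gene (DEG) when its Benjamini-Hochberg adjusted p in edgeR's quasi-likelihood test over 14765 genes was below 0.05 and its log2 fold change exceeded 0.5 in size. All 8 mast cell genes passed the filter on low counts. A few libraries stood apart. No operation replicates 2 and 3 held 568 and 189 summed CPM of the marrow granulocyte precursor markers Elane, Mpo, Prtn3, Ms4a3 and Cebpe, against 4.62 and 4.98 in replicates 1 and 4. Operated mice held them too, at 2.75, 15.8, 46.2 and 139 CPM in SHAM replicates 1 to 4. In Laminectomy replicates 1 to 4 they summed to 63.8, 201, 428 and 64.1 CPM. SHAM replicate 4 was nearer to the Laminectomy mean than to the mean of the other SHAM mice, with a root mean square difference in log2 CPM over all genes tested of 0.473 against 0.520. In SHAM replicates 1 to 3 the order was the opposite, with 0.746, 0.484 and 0.514 to the other SHAM mice against 1.00, 0.602 and 0.607 to the Laminectomy mean. Markers of skeletal muscle fibres (10 of 10 genes) were lower in both operated groups, summing to 86560 to 123000 CPM in No operation, 2135 to 8598 CPM in SHAM and 2838 to 12080 CPM in Laminectomy mice, and the macrophage markers were higher (6 of 6 in SHAM, 5 of 6 in Laminectomy). Of all genes tested, 25.1% were DEGs that were lower and 25.7% higher in SHAM, and 24.4% and 24.2% in Laminectomy mice. Their part in the changes of mast cell genes was not tested.

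The promoters of Cpa3, Mcpt4, Cma1 and Ms4a2 are printed because these genes carried the lower levels described next, and because Gata2, whose product binds GATA motifs and is needed for mast cell identity, was itself measured. Each sequence holds the 250 bases before the RefSeq start of the gene, 5′ to 3′ on its own strand, from the C57BL/6J reference and not from the BALB/c mice studied. Capitals mark the GATA motif in any of the 4 forms searched on both strands: AGATAA in the first form, AGATAG where its last base is G, TGATAA where its first base is T, and TGATAG with both changes. The capitals in Cma1 (CTATCT) and part of those in Ms4a2 (TTATCT) are matches read on the other strand.
Cpa3 (GRCm38.p6, chr3:20242182-20242431, minus strand): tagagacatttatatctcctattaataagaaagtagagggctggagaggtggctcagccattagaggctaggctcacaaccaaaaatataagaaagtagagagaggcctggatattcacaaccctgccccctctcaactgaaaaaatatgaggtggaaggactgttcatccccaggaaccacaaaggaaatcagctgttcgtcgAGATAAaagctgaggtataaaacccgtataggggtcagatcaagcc
Mcpt4 (GRCm38.p6, chr14:56062311-56062560, minus strand): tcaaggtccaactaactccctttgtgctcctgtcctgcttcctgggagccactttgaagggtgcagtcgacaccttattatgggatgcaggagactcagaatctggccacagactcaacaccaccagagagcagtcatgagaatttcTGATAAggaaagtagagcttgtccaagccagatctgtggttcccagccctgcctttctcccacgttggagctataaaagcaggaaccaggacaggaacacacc
Cma1 (GRCm38.p6, chr14:55944676-55944925, minus strand): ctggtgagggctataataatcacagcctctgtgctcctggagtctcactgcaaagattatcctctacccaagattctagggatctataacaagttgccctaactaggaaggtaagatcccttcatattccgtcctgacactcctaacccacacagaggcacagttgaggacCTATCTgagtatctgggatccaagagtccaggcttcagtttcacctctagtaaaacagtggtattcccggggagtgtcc
Ms4a2 (GRCm38.p6, chr19:11623720-11623969, minus strand): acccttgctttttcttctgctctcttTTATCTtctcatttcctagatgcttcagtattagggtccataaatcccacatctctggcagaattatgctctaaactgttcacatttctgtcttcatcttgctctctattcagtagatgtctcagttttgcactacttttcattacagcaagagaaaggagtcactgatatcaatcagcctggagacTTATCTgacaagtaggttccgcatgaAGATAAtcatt

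Of the 8 genes, 7 were matched in the RefSeq promoter table (GRCm38.p6), Tpsb2 being the other. In the 300 bases from 250 before to 50 after the start, 6 of the 7 held at least 1 GATA match, against 29.8% of all 32851 promoters of that length. The match began 46 bases before the start in Cpa3, 103 in Mcpt4, 79 in Cma1, 92 in Fcer1a and 221 in Hdc, while Ms4a2 held 3 matches, at 224, 37 and 11 bases. Kit held none. The E-box CACGTG or CATGTG, the motif of the factor MITF, was found in Fcer1a only, 208 bases before the start, and in 20.4% of all promoters. A match is a description of the letters and not evidence of binding.

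All 4 granule proteases were lower after Laminectomy than in unoperated tissue. Cpa3, carboxypeptidase A3 of the granule (gene ID 12873, chr3:20215616-20242209 in GRCm38, minus strand), stood at 23.5, 12.2, 10.5 and 13.7 CPM in No operation replicates 1 to 4, 18.04, 10.3, 12.2 and 2.35 CPM in SHAM replicates 1 to 4 and 0.529, 2.47, 2.80 and 2.35 CPM in Laminectomy replicates 1 to 4. Every Laminectomy mouse lay below every No operation mouse, and SHAM replicate 4 lay among the Laminectomy mice while the other SHAM mice lay within or just below the No operation range. Mean Cpa3 was 15.0 ± 5.83 CPM in No operation, 10.7 ± 6.48 CPM in SHAM and 2.04 ± 1.02 CPM in Laminectomy mice (SD, n = 4 mice each). It fell 7.33-fold in Laminectomy against No operation (edgeR, log2 fold change -2.87 ± 0.60 SE, adjusted p = 0.00162), and the SHAM difference did not pass (edgeR, log2 fold change -0.48 ± 0.55 SE, adjusted p = 0.460).

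Mcpt4, a chymase of connective tissue mast cells (gene ID 17227, chr14:56059744-56062310, minus strand), stood at 16.8, 12.4, 11.1 and 16.6 CPM in No operation replicates 1 to 4, 11.2, 12.3, 8.42 and 1.01 CPM in SHAM replicates 1 to 4 and 0.0529, 2.21, 1.35 and 1.77 CPM in Laminectomy replicates 1 to 4. The pattern of Cpa3 was seen again, with Laminectomy replicate 1 resting on a single count and SHAM replicate 4 again inside the Laminectomy range. Mcpt4 averaged 14.2 ± 2.91, 8.23 ± 5.08 and 1.35 ± 0.931 CPM in No operation, SHAM and Laminectomy mice (SD, n = 4 mice each). It fell 10.5-fold after Laminectomy (edgeR, log2 fold change -3.39 ± 0.77 SE, adjusted p = 0.00284), whereas in SHAM the change was not called (edgeR, log2 fold change -0.79 ± 0.69 SE, adjusted p = 0.337).

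Cma1, a second chymase (gene ID 17228, chr14:55941451-55944675, minus strand), stood at 22.3, 11.97, 9.66 and 12.97 CPM in No operation replicates 1 to 4, 19.2, 13.7, 10.6 and 2.56 CPM in SHAM replicates 1 to 4 and 0.265, 2.06, 1.30 and 2.76 CPM in Laminectomy replicates 1 to 4. Laminectomy and No operation mice did not overlap, and SHAM replicates 1 to 3 lay within the No operation range. Group means were 14.2 ± 5.58, 11.5 ± 6.93 and 1.595 ± 1.07 CPM in the same order (SD, n = 4 mice each). The 8.88-fold fall after Laminectomy passed the test (edgeR, log2 fold change -3.15 ± 0.66 SE, adjusted p = 0.00170) and the SHAM difference did not (edgeR, log2 fold change -0.31 ± 0.59 SE, adjusted p = 0.670).

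Tpsb2, a tryptase that is held in the granule by heparin (gene ID 17229, chr17:25366308-25368096, plus strand), stood at 19.6, 8.12, 7.53 and 10.8 CPM in No operation replicates 1 to 4, 13.5, 12.4, 11.2 and 1.71 CPM in SHAM replicates 1 to 4 and 0.106, 0.925, 1.04 and 2.24 CPM in Laminectomy replicates 1 to 4. Again the Laminectomy mice were all below the No operation mice, and SHAM replicate 4 was set apart from the other SHAM mice. The means were 11.5 ± 5.56, 9.70 ± 5.41 and 1.08 ± 0.880 CPM (SD, n = 4 mice each). Tpsb2 fell 10.6-fold after Laminectomy (edgeR, log2 fold change -3.41 ± 0.74 SE, adjusted p = 0.00218), and its SHAM difference was not called (edgeR, log2 fold change -0.25 ± 0.65 SE, adjusted p = 0.760).

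Summed over the 4 proteases, the level ranged from 38.8 to 82.2 CPM in No operation mice, from 42.4 to 61.9 CPM in SHAM replicates 1 to 3 and from 0.953 to 9.12 CPM in Laminectomy mice, with SHAM replicate 4 at 7.63 CPM. The order of the group means was the same for each protease, No operation above SHAM above Laminectomy, but the neighbours No operation and SHAM did not differ beyond their spread. In the two-sided exact permutation test over mice, each of the 4 Laminectomy differences reached p = 0.0286, the smallest that 4 against 4 mice allows. Leaving out any 1 mouse kept all 4 Laminectomy calls, and without Laminectomy replicate 1, the lowest mouse for each protease, the log2 fold changes were -2.56, -2.99, -2.80 and -3.03 for Cpa3, Mcpt4, Cma1 and Tpsb2. Without Laminectomy replicate 4 that of Tpsb2 was -4.04. Without SHAM replicate 4 the SHAM log2 fold changes were -0.15, -0.42, 0.03 and 0.11, so that Cma1 and Tpsb2 changed sign, and none passed (edgeR adjusted p = 0.797, 0.550, 0.968 and 0.885). Sharing of reads between near-identical genes was limited in the C57BL/6J transcripts, since 1 of 1009 windows of 100 bases in Mcpt4 occurred elsewhere, in Cma2, and none of Cpa3, Cma1 or Tpsb2. The neighbouring tryptase gene Tpsab1 was not analysed here.

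**Figure D1:**
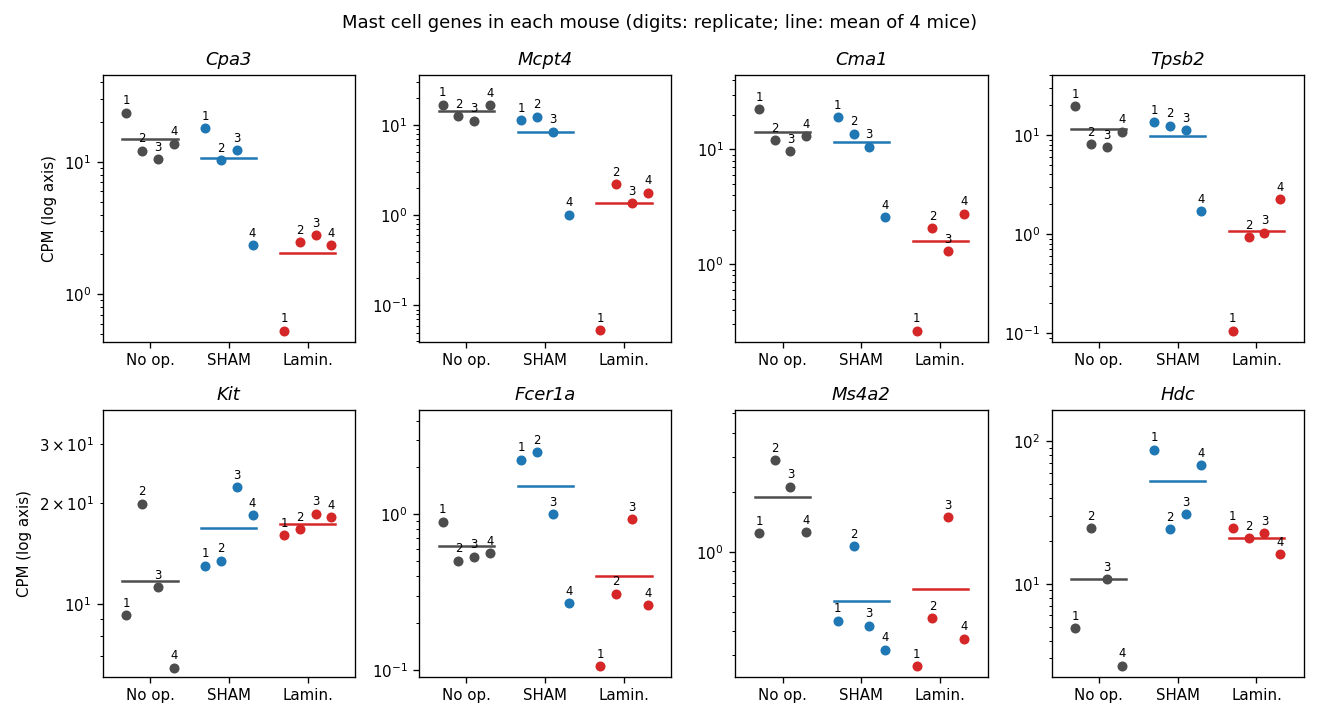
CPM of the 8 mast cell genes (log axis) in each of the 12 mice, by group; digits give the replicate number and each line is the mean of 4 mice. For Cpa3, Mcpt4, Cma1 and Tpsb2 the Laminectomy mice lie below all No operation mice, with SHAM replicate 4 near them.

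Of the 3 receptor genes, Ms4a2 was called lower in both operated groups, and Kit and Fcer1a passed in neither. Kit, the receptor for stem cell factor (gene ID 16590, chr5:75574987-75656722, plus strand), which blood precursors and melanocytes also use, stood at 9.24, 19.9, 11.2 and 6.45 CPM in No operation replicates 1 to 4, 12.98, 13.4, 22.3 and 18.4 CPM in SHAM replicates 1 to 4 and 15.99, 16.7, 18.6 and 18.1 CPM in Laminectomy replicates 1 to 4. The No operation mice were scattered, with replicate 2 above all Laminectomy mice and the other 3 below them, while the Laminectomy mice lay close together. Kit averaged 11.7 ± 5.81, 16.8 ± 4.42 and 17.3 ± 1.21 CPM in No operation, SHAM and Laminectomy mice (SD, n = 4 mice each). Neither difference from No operation passed in edgeR (SHAM, log2 fold change 0.52 ± 0.29 SE, adjusted p = 0.145; Laminectomy, log2 fold change 0.57 ± 0.29 SE, adjusted p = 0.117). Without No operation replicate 2 Kit was called higher in both, at log2 fold changes of 0.90 (edgeR adjusted p = 0.00559) and 0.95 (edgeR adjusted p = 0.00447). Without No operation replicates 2 and 3, which held the most marrow precursor markers of their group, these were 1.11 (edgeR adjusted p = 0.00504) and 1.16 (edgeR adjusted p = 0.00434). The No operation mice kept in that fit held 4.62 and 4.98 summed CPM of these markers. SHAM mice held 2.75 to 139 CPM and Laminectomy mice 63.8 to 428 CPM. The part of marrow cells in the Kit values was not tested. The 5 melanocyte markers Dct, Tyr, Tyrp1, Pmel and Mlana summed to 0.480 to 2.52 CPM in all mice, with Dct, Tyr, Tyrp1 and Mlana each at 0 in at least 1 library.

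Fcer1a, the chain of the receptor that binds IgE (gene ID 14125, chr1:173221269-173227232, minus strand), stood at 0.896, 0.504, 0.533 and 0.561 CPM in No operation replicates 1 to 4, 2.25, 2.51, 1.01 and 0.267 CPM in SHAM replicates 1 to 4 and 0.106, 0.309, 0.932 and 0.261 CPM in Laminectomy replicates 1 to 4. These levels rest on 2 to 47 counts per mouse, and SHAM replicates 1 to 3 were above all No operation mice while SHAM replicate 4 was below them. Its means were 0.623 ± 0.183, 1.51 ± 1.06 and 0.402 ± 0.364 CPM (SD, n = 4 mice each). With all mice Fcer1a passed in neither comparison (edgeR, SHAM log2 fold change 1.27 ± 0.68 SE, adjusted p = 0.123; Laminectomy log2 fold change -0.62 ± 0.72 SE, adjusted p = 0.480). Without SHAM replicate 4 it was called higher in SHAM, at a log2 fold change of 1.62 (edgeR adjusted p = 0.0346). The Laminectomy log2 fold change ran from -0.31 without Laminectomy replicate 1 to -1.44 without Laminectomy replicate 3, with no call.

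Ms4a2, the signal-amplifying chain of the same receptor (gene ID 14126, chr19:11615517-11623790, minus strand), stood at 1.24, 2.90, 2.13 and 1.26 CPM in No operation replicates 1 to 4, 0.450, 1.07, 0.424 and 0.320 CPM in SHAM replicates 1 to 4 and 0.265, 0.463, 1.502 and 0.365 CPM in Laminectomy replicates 1 to 4. All SHAM mice were below all No operation mice, but Laminectomy replicate 3 reached into the No operation range, and the levels rest on 5 to 46 counts per mouse. Mean Ms4a2 was 1.88 ± 0.793, 0.566 ± 0.341 and 0.649 ± 0.575 CPM (SD, n = 4 mice each). It fell in SHAM (edgeR, log2 fold change -1.72 ± 0.58 SE, adjusted p = 0.0219) and in Laminectomy mice (edgeR, log2 fold change -1.53 ± 0.57 SE, adjusted p = 0.0364). The two-sided exact permutation test gave p = 0.0286 in SHAM and p = 0.0857 in Laminectomy mice.

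The 3 mice with the highest Ms4a2 were also the 3 with the highest sums of basophil markers. No operation replicates 2 and 3 and Laminectomy replicate 3, at 2.897, 2.13 and 1.502 CPM of Ms4a2, held 15.5, 7.79 and 11.9 summed CPM of the basophil markers Mcpt8, Prss34 and Cd200r3, against 0.620 to 4.68 in the other 9 mice. Their marrow granulocyte precursor markers summed to 568, 189 and 428 CPM, and Laminectomy replicate 2, at 0.463 CPM of Ms4a2, held 201 CPM. Ms4a2 is expressed by basophils as well as by mast cells, and the part of these cells in the result was not tested. Without No operation replicates 2 and 3, Ms4a2 was called in neither comparison (edgeR, SHAM log2 fold change -1.13, adjusted p = 0.206; Laminectomy -0.93, adjusted p = 0.292). The SHAM call was also lost without any 1 of No operation replicate 2 or SHAM replicates 1, 3 or 4 (edgeR adjusted p from 0.0527 to 0.0629). The Laminectomy call was lost without any 1 of No operation replicates 2 or 3 or Laminectomy replicates 1, 2 or 4 (edgeR adjusted p from 0.0738 to 0.0999). Without Laminectomy replicate 3 it was -2.35 (edgeR adjusted p = 0.00336). In the reference transcripts 13 of 2292 windows of 100 bases in Ms4a2 also occurred in Ms4a4b.

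**Figure D2:**
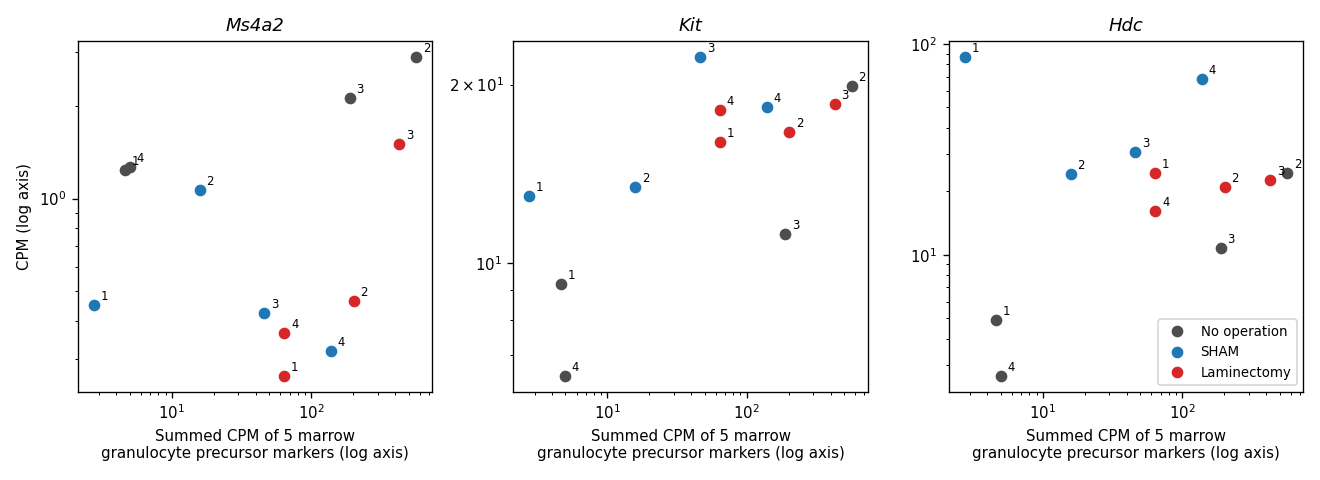
CPM of Ms4a2, Kit and Hdc (log axes) against the summed CPM of 5 marrow granulocyte precursor markers (log axis) in each mouse; digits give the replicate number. No operation replicates 2 and 3 hold 568 and 189 CPM of the markers and are the highest of their group for all 3 genes.

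Hdc was the only one of the 8 genes called higher, in SHAM. It encodes histidine decarboxylase, the enzyme that forms histamine (gene ID 15186, chr2:126593659-126624025, minus strand), and stood at 4.89, 24.5, 10.8 and 2.66 CPM in No operation replicates 1 to 4, 87.1, 24.1, 30.6 and 67.9 CPM in SHAM replicates 1 to 4 and 24.4, 20.9, 22.6 and 16.1 CPM in Laminectomy replicates 1 to 4. SHAM replicates 1 and 4 were the highest of the 12 mice, and No operation replicate 2, just above SHAM replicate 2, kept the groups from separating. Hdc averaged 10.7 ± 9.81 CPM in No operation, 52.4 ± 30.1 CPM in SHAM and 21.0 ± 3.59 CPM in Laminectomy mice (SD, n = 4 mice each). It rose 4.87-fold in SHAM (edgeR, log2 fold change 2.29 ± 0.60 SE, adjusted p = 0.00646; two-sided exact permutation p = 0.0571), and the Laminectomy difference did not pass (edgeR, log2 fold change 0.97 ± 0.59 SE, adjusted p = 0.177). Without No operation replicate 2 the SHAM log2 fold change was 3.09, and the Laminectomy difference was called, at a log2 fold change of 1.77 (edgeR adjusted p = 0.0145). Without No operation replicates 2 and 3 the log2 fold changes were 3.80 in SHAM and 2.49 after Laminectomy (edgeR adjusted p = 0.00509 for the latter). The SHAM and Laminectomy mice in that fit still held 2.75 to 139 and 63.8 to 428 summed CPM of the marrow precursor markers.

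Hdc is also expressed by neutrophils and macrophages. The 12 neutrophil markers summed to 1689, 757, 886 and 2133 CPM in SHAM replicates 1 to 4, with Hdc highest in replicates 1 and 4. The markers did not move together: in SHAM replicate 1 Ngp, Ltf and Camp were the lowest of the group (2.02, 0.506 and 0.899 CPM), while Mmp9, Cxcr2 and Csf3r were the highest (516, 89.2 and 294 CPM). Of the 12, only Csf3r was called in SHAM and only Mmp9 after Laminectomy, both higher (edgeR adjusted p = 0.00661 and 0.0329). Over all genes tested, 50.8% and 48.6% were DEGs in these comparisons. The 12 summed to 109, 4843, 1805 and 40.3 CPM in No operation replicates 1 to 4, with Hdc at 4.89, 24.5, 10.8 and 2.66 CPM. In Laminectomy replicates 1 to 4 they summed to 2315, 3025, 4258 and 1649 CPM, with Hdc at 24.4, 20.9, 22.6 and 16.1 CPM. The 6 macrophage markers ranged from 599 to 1743 CPM in No operation, from 4349 to 7975 CPM in SHAM and from 3147 to 5459 CPM in Laminectomy mice. Their part in the Hdc result was not tested.

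Counted over the 8 genes, SHAM against No operation gave 1 higher (Hdc), 1 lower (Ms4a2) and 6 that did not pass, where 50.8% of all genes tested were DEGs, 25.7% higher and 25.1% lower. Laminectomy against No operation gave 5 lower (the 4 proteases and Ms4a2), none higher and 3 that did not pass. In this comparison 48.6% of all genes were DEGs, 24.2% higher and 24.4% lower. The median log2 fold change of the 8 genes was -0.28 in SHAM and -2.20 in Laminectomy mice, beside -0.0020 and 0.0093 over all genes tested. Groups did not overlap for Ms4a2 in SHAM and for the 4 proteases in Laminectomy mice, and 27.8% and 29.0% of all genes were lower without overlap in these comparisons. Both comparisons use the same 4 No operation mice.

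Per kilobase of exon, the proteases stood above the receptors in unoperated tissue. Mean levels there were 13.1 CPM per kb for Cma1, 12.8 for Mcpt4, 9.88 for Cpa3 and 7.22 for Tpsb2. Hdc stood at 1.68, Kit at 1.31, Ms4a2 at 0.669 and Fcer1a at 0.625 CPM per kb. After Laminectomy Hdc was the highest of the 8 on this scale at 3.29 CPM per kb and Kit was next at 1.95, with the proteases between 0.676 and 1.46.

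The test of whether the 2 operations differed is the comparison of Laminectomy with SHAM. In edgeR it called none of the 8 genes and 0.0% of all genes tested, while 2359 genes (16.0%) had an unadjusted p below 0.05. By that unadjusted measure 6 of the 8 genes were lower after Laminectomy, against 9.03% of all genes: the 4 proteases, Fcer1a and Hdc. For these 6 the two-sided exact permutation p ran from 0.0571 to 0.114. The 2 groups overlapped for all 8 genes. The log2 fold changes were -2.39 for Cpa3 (edgeR adjusted p = 0.116), -2.60 for Mcpt4 (edgeR adjusted p = 0.151), -2.84 for Cma1 (edgeR adjusted p = 0.111) and -3.16 for Tpsb2 (edgeR adjusted p = 0.111). Fcer1a and Hdc stood at -1.89 (edgeR adjusted p = 0.215) and -1.32 (edgeR adjusted p = 0.296), and Kit and Ms4a2 at 0.05 (edgeR adjusted p = 0.949) and 0.20 (edgeR adjusted p = 0.893). The Ms4a2 value turned to -0.63 without Laminectomy replicate 3 and was 0.70 without SHAM replicate 2, and that of Kit turned to -0.05 without SHAM replicate 1 or 2. Without Laminectomy replicate 3 Fcer1a stood at -2.70, and without Laminectomy replicate 4 Tpsb2 stood at -3.80.

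The call on the proteases between the operations depended on the test. Without SHAM replicate 4 the edgeR adjusted p values were 0.0579 for Cpa3, 0.0785 for Mcpt4, 0.0579 for Cma1 and 0.0626 for Tpsb2, with log2 fold changes of -2.73, -2.97, -3.18 and -3.51, and still no gene of the table was called. DESeq2, run on all 12 mice, called 601 genes (4.07%), 2.28% of all genes in the lower direction. All 4 proteases were among them, with DESeq2 adjusted p values of 0.00319 for Cpa3, 0.0171 for Mcpt4, 0.000999 for Cma1 and 0.00107 for Tpsb2.

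**Figure D3:**
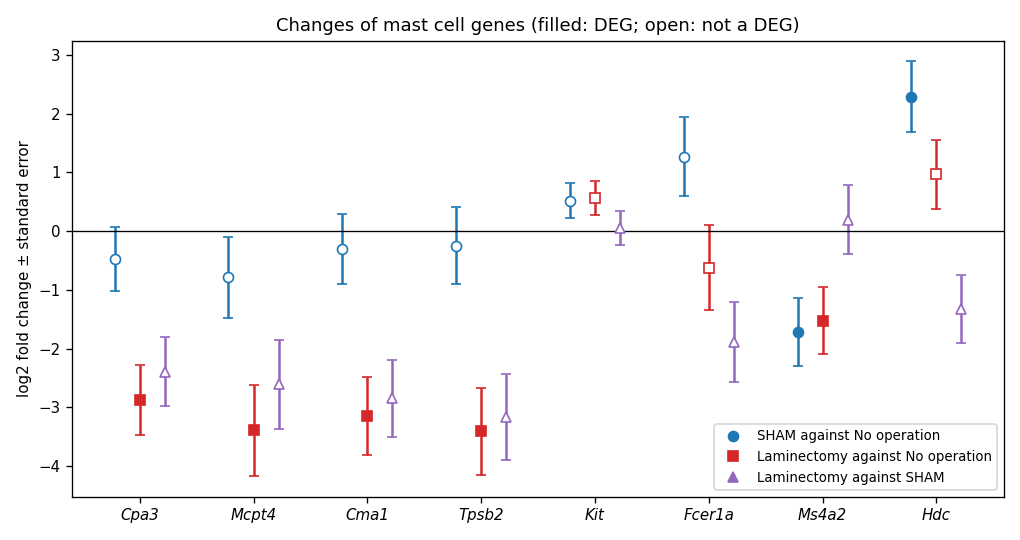
Log2 fold changes of the 8 mast cell genes with their standard errors in the 3 comparisons, from edgeR; filled symbols are DEGs and open symbols are not. The 4 proteases are filled in Laminectomy against No operation, between -2.87 and -3.41, and Hdc is the only one filled above 0, in SHAM.

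Each gene was also taken as a ratio to Cpa3 within the same mouse, where library scaling enters only through the prior count of 2. For Mcpt4, Cma1 and Tpsb2 the mean log2 ratio in operated mice differed from that in No operation mice by -0.84 to 0.24. For Kit it was higher by 3.63 in Laminectomy mice, for Fcer1a by 1.54 in SHAM and 2.23 in Laminectomy mice, and for Hdc by 3.27 and 4.37. Each of these 5 differences had the smallest p that 4 against 4 mice allows (two-sided exact permutation p = 0.0286). The other differences were 1.32 for Kit in SHAM and -0.86 and 1.40 for Ms4a2 in SHAM and Laminectomy mice. None of the 14 ratios tested passed after adjustment, the smallest exact permutation p being 0.0800 once adjusted. With this few mice a ratio could pass only if most of the 14 reached the smallest p, so the adjusted test cannot decide on single ratios.

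Which other genes ran most like Cpa3 was asked by the root mean square difference of log2 CPM over the 12 mice, each gene centred on its own mean; the median over all genes tested was 1.57. Among the mast cell genes the difference was 0.387 for Cma1, 0.536 for Tpsb2 and 0.623 for Mcpt4, then 1.04 for Fcer1a and 1.28 for Ms4a2, and 1.80 for Kit and 2.28 for Hdc. The 5 nearest other genes were Ccl11 (0.362), C4b (0.396), Pi16 (0.449), Mrgprb2 (0.470) and Mrgprb1 (0.484). With a prior count of 0.5 instead of 2 in the log, Ccl11, C4b and Pi16 stayed among the nearest 5.

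Ccl11, the chemokine eotaxin, stood at 38.6, 27.7, 26.3 and 39.8 CPM in No operation replicates 1 to 4, 35.2, 26.5, 21.0 and 10.5 CPM in SHAM replicates 1 to 4 and 1.22, 6.58, 8.03 and 6.67 CPM in Laminectomy replicates 1 to 4. The genes nearest to Cpa3 were picked on these same 12 mice for sharing its profile, so the levels of Ccl11, C4b and Pi16 are given as a description, with no test. After Laminectomy the log2 fold changes were -2.55 for Ccl11, -2.06 for C4b, a complement component, and -2.46 for Pi16, a marker of adventitial fibroblasts. Pi16 stood at 353, 154, 242 and 274 CPM in No operation replicates 1 to 4, 338, 321, 269 and 49.3 CPM in SHAM replicates 1 to 4 and 5.72, 57.8, 69.0 and 53.3 CPM in Laminectomy replicates 1 to 4, and its exons overlap those of AC162182.1 on the opposite strand. Of the 8 fibroblast markers, of which Pi16 is one, 4 were higher and 2 lower after Laminectomy and 5 were higher and 1 lower in SHAM. The fibroblast markers summed to 9005 to 26760 CPM in No operation, 54450 to 76550 CPM in SHAM and 50190 to 63450 CPM in Laminectomy mice. Of the 5 adipocyte markers, 5 were lower after Laminectomy and 3 in SHAM. These counts stand beside 24.2% higher and 24.4% lower of all genes after Laminectomy, and 25.7% and 25.1% in SHAM. The adipocyte sum ranged from 1146 to 2179 CPM in No operation, from 248.6 to 1295 CPM in SHAM and from 72.5 to 401 CPM in Laminectomy mice. Their part in the fall of Cpa3 was not tested.

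**Figure D4:**
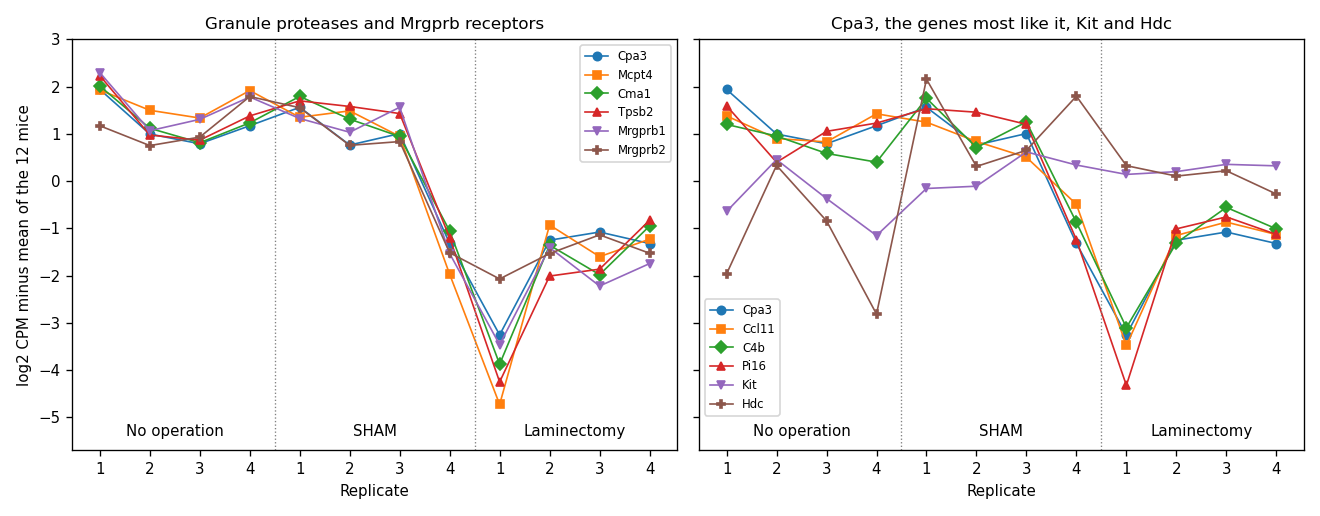
Log2 CPM of each gene minus its mean over the 12 mice, by group and replicate: left, the 4 proteases with Mrgprb1 and Mrgprb2; right, Cpa3 with Ccl11, C4b and Pi16, and with Kit and Hdc. The lines of the left panel fall together at SHAM replicate 4 and stay low in the Laminectomy mice, while Kit and Hdc take other courses.

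The wider mast cell and IgE receptor pathway was followed in 7 lists of 56 genes, of which 53 were in the table and 43 were tested. Of the rest, Tpsab1, Il3 and Il9 were not analysed here, and Tpsg1, Mcpt1, Mcpt2, Mcpt9, Il4, Il5, Il13, Hrh3, Hrh4 and Aoc1 did not pass the filter on low counts. In SHAM 22 were higher, 5 were lower and 16 did not pass, and after Laminectomy 19 were higher, 8 were lower and 16 did not pass, to be read beside the 50.8% and 48.6% of all genes that were DEGs. None was called between Laminectomy and SHAM in edgeR, and DESeq2 called 3 lower, Mrgprb1, Mrgprb2 and Il33. The median log2 fold change of the 43 genes was 0.88 in SHAM and 0.52 after Laminectomy.

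Of the 6 granule components tested beside the panel, 3 were higher and 1 lower in SHAM, and 3 were higher after Laminectomy. The shares of all genes were 25.7% higher and 25.1% lower in SHAM, and 24.2% and 24.4% after Laminectomy. Srgn, the proteoglycan core of the granule, rose with log2 fold changes of 2.18 in SHAM and 1.14 after Laminectomy (edgeR adjusted p = 0.000334 and 0.0149). Ctsc, the protease that activates granule chymases, rose by 2.07 and 1.59 (edgeR adjusted p = 4.87e-05 and 0.000302). Ndst2, which sulphates heparin, rose by 0.88 and 0.52 (edgeR adjusted p = 0.000298 and 0.00865), but the second value came under the fold limit without No operation replicate 3 (0.48), No operation replicate 4 (0.47) or Laminectomy replicate 1 (0.39), and without No operation replicates 2 and 3 together (0.498). Slc18a2, the transporter that loads histamine into granules, named after its values were seen, was called lower in SHAM (edgeR, log2 fold change -0.65 ± 0.24 SE, adjusted p = 0.0324). That call was lost without any 1 of No operation replicates 2, 3 and 4 and SHAM replicates 1 and 4 (edgeR adjusted p from 0.0557 to 0.0877) and without No operation replicates 2 and 3 together (edgeR adjusted p = 0.146).

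Among the 7 other receptor genes, 5 were higher in both operated groups and the remaining pair were lower after Laminectomy. Over all genes tested 25.7% were higher in SHAM, and 24.2% were higher and 24.4% lower after Laminectomy. Fcer1g, the chain that the IgE receptor shares with the Fc receptors of macrophages, rose by 2.65 in SHAM and 1.98 after Laminectomy on the log2 scale (edgeR adjusted p = 2.76e-05 and 0.000182). Il1rl1, the receptor for interleukin 33, rose by 2.63 and 1.87 (edgeR adjusted p = 8.97e-05 and 0.000886). The cytokine receptor genes Csf2rb2, Csf2rb and Il3ra rose by 2.17, 2.17 and 2.01 in SHAM and by 1.25, 1.34 and 1.35 after Laminectomy, Csf2rb and Il3ra being named after their values were seen (edgeR adjusted p between 3.75e-05 and 0.00555).

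Mrgprb1 and Mrgprb2, receptors of the Mas-related family, of which Mrgprb2 lets mast cells respond to basic peptides without IgE, were the pair that fell. Mrgprb1 stood at 6.07, 2.52, 3.00 and 4.21 CPM in No operation replicates 1 to 4, 3.04, 2.46, 3.60 and 0.320 CPM in SHAM replicates 1 to 4 and 0, 0.360, 0.155 and 0.261 CPM in Laminectomy replicates 1 to 4. It was at 0 counts in Laminectomy replicate 1 and did not overlap between Laminectomy and No operation mice (edgeR, log2 fold change -4.29 ± 0.79 SE, adjusted p = 0.000748). Mrgprb2 stood at 0.965, 0.693, 0.799 and 1.54 CPM in No operation replicates 1 to 4, 1.29, 0.695, 0.741 and 0.0534 CPM in SHAM replicates 1 to 4 and 0, 0.0514, 0.104 and 0.0521 CPM in Laminectomy replicates 1 to 4. Its log2 fold change after Laminectomy was -4.09, on 11 to 22 counts in No operation and 0 to 2 in Laminectomy mice. Because Mrgprb2 is named for its likeness to Cpa3 in these same mice, this value is a description, with no test.

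For lipid mediators and serotonin, Hpgds, a prostaglandin D synthase, rose by 2.28 in SHAM and 1.75 after Laminectomy on the log2 scale, and Alox5ap, needed for leukotriene synthesis, by 1.94 and 1.30 (edgeR adjusted p between 5.72e-05 and 0.00462). Tph1, the enzyme for serotonin synthesis outside the brain, stood at 3.10, 0.945, 0.600 and 1.54 CPM in No operation replicates 1 to 4, 0.787, 0.535, 0.424 and 0.267 CPM in SHAM replicates 1 to 4 and 0, 0.309, 0.207 and 0.313 CPM in Laminectomy replicates 1 to 4. It fell after Laminectomy (edgeR, log2 fold change -2.85 ± 0.70 SE, adjusted p = 0.00457). Its SHAM difference passed narrowly (edgeR, log2 fold change -1.61 ± 0.65 SE, adjusted p = 0.0476). The call was lost without any 1 of No operation replicates 1 and 4, SHAM replicates 2 to 4 and Laminectomy replicates 2 to 4 (edgeR adjusted p from 0.0564 to 0.184). It was also lost with the replicate number as a block (edgeR adjusted p = 0.0913) and with no filter on low counts (edgeR adjusted p = 0.0676). The other gene of this list that fell after Laminectomy was Ptgs1, a cyclooxygenase, named after its values were seen (edgeR, log2 fold change -0.64 ± 0.17 SE, adjusted p = 0.00651). Its call was lost without No operation replicates 2 and 3 (edgeR adjusted p = 0.0826). Of the 6 genes, 2 were higher and 1 lower in SHAM, and 2 were higher and 2 lower after Laminectomy. Beside this, 25.7% of all genes were higher and 25.1% lower in SHAM, and 24.2% and 24.4% after Laminectomy.

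Of 5 transcription factors, Gata2, which is required for mast cell development and is also expressed by endothelium, stood at 17.2, 17.00, 16.7 and 27.8 CPM in No operation replicates 1 to 4, 4.89, 7.81, 8.53 and 6.30 CPM in SHAM replicates 1 to 4 and 6.35, 7.56, 6.63 and 8.497 CPM in Laminectomy replicates 1 to 4. All operated mice were below all No operation mice, and Gata2 fell in SHAM (edgeR, log2 fold change -1.51 ± 0.22 SE, adjusted p = 0.000125) and after Laminectomy (edgeR, log2 fold change -1.44 ± 0.22 SE, adjusted p = 0.000206). Cpa3 was within or near the No operation range in SHAM replicates 1 to 3. Any link between the levels of Gata2 and Cpa3 was not tested, and Gata2 of mast cells was not measured apart from that of other cells. Lyl1, a factor of blood cell lineages, rose in SHAM (edgeR, log2 fold change 0.97 ± 0.23 SE, adjusted p = 0.00314) and did not pass after Laminectomy (edgeR, log2 fold change 0.32 ± 0.23 SE, adjusted p = 0.246). There it was called without No operation replicate 2 (log2 fold change 0.57, edgeR adjusted p = 0.0233). The 4 endothelial markers, of which 2 were lower in each operated group (25.1% of all genes in SHAM and 24.4% after Laminectomy), summed to 537 to 676 CPM in No operation, 402 to 544 CPM in SHAM and 385 to 569 CPM in Laminectomy mice.

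The ligands behaved differently from one another. Kitl, which encodes stem cell factor, the ligand of Kit, stood at 83.1, 90.4, 93.6 and 115 CPM in No operation replicates 1 to 4, 44.2, 44.5, 50.6 and 37.7 CPM in SHAM replicates 1 to 4 and 30.9, 40.7, 40.6 and 60.5 CPM in Laminectomy replicates 1 to 4. It was lower in every operated mouse than in every No operation mouse, and it fell in SHAM (edgeR, log2 fold change -1.11 ± 0.18 SE, adjusted p = 0.000336) and after Laminectomy (edgeR, log2 fold change -1.14 ± 0.18 SE, adjusted p = 0.000314). Il33, an alarm cytokine that activates mast cells, stood at 67.7, 21.2, 33.2 and 17.7 CPM in No operation replicates 1 to 4, 276, 189, 90.4 and 78.5 CPM in SHAM replicates 1 to 4 and 22.5, 46.8, 53.3 and 55.6 CPM in Laminectomy replicates 1 to 4. All SHAM mice were above all No operation mice. Il33 rose in SHAM (edgeR, log2 fold change 2.18 ± 0.51 SE, adjusted p = 0.00327) and did not pass after Laminectomy (edgeR, log2 fold change 0.35 ± 0.50 SE, adjusted p = 0.566), and the edgeR comparison of Laminectomy with SHAM gave an adjusted p of 0.141.

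Of 13 genes that signal downstream of the IgE receptor, 9 were higher in SHAM and 8 after Laminectomy, with none lower. Among all genes tested 25.7% were higher and 25.1% lower in SHAM, and 24.2% and 24.4% after Laminectomy. The largest changes among those named were in Lat2, an adaptor, at 2.43 and 2.34, Lcp2, an adaptor, at 2.40 and 1.92, and Vav1, a guanine nucleotide exchange factor of leukocytes, at 2.34 and 1.89 on the log2 scale in SHAM and Laminectomy mice (edgeR adjusted p between 6.55e-05 and 0.00544). These genes are used by many leukocytes, and the leukocyte markers Ptprc, Coro1a and Laptm5 summed to 90.4 to 388 CPM in No operation, 703 to 1058 CPM in SHAM and 604 to 826 CPM in Laminectomy mice. Their part in these increases was not tested.

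On the receiving side of histamine, Hrh2 rose in SHAM (edgeR, log2 fold change 1.94 ± 0.43 SE, adjusted p = 0.00215) and after Laminectomy (edgeR, log2 fold change 1.13 ± 0.42 SE, adjusted p = 0.0373). The second call was lost without any 1 of No operation replicates 1, 3 or 4 or Laminectomy replicates 1, 2 or 3 (edgeR adjusted p from 0.0527 to 0.1003). Hrh1 fell after Laminectomy (edgeR, log2 fold change -1.87 ± 0.39 SE, adjusted p = 0.00163) and did not pass in SHAM (edgeR, log2 fold change -0.85 ± 0.37 SE, adjusted p = 0.0663). There it was called without Laminectomy replicate 1 (edgeR adjusted p = 0.0251), with only the 2 groups compared in the fit (edgeR adjusted p = 0.0298) and by DESeq2 (adjusted p = 0.0413). Hnmt, which breaks histamine down, fell in SHAM (edgeR, log2 fold change -0.64 ± 0.22 SE, adjusted p = 0.0223) and after Laminectomy (edgeR, log2 fold change -0.68 ± 0.22 SE, adjusted p = 0.0169). The groups overlapped for Hnmt. Both calls were lost without No operation replicates 2 and 3 together (edgeR adjusted p = 0.174 and 0.139, SHAM first). The same held without No operation replicate 2 (edgeR adjusted p = 0.0709 and 0.0522) or replicate 4 (edgeR adjusted p = 0.0609 and 0.0503). The SHAM call was also lost without SHAM replicate 2 or 4 (edgeR adjusted p = 0.0567 and 0.0633), with the replicate number as a block (edgeR adjusted p = 0.0571) and with only the 2 groups compared in the fit (edgeR adjusted p = 0.0517).

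**Figure D5:**
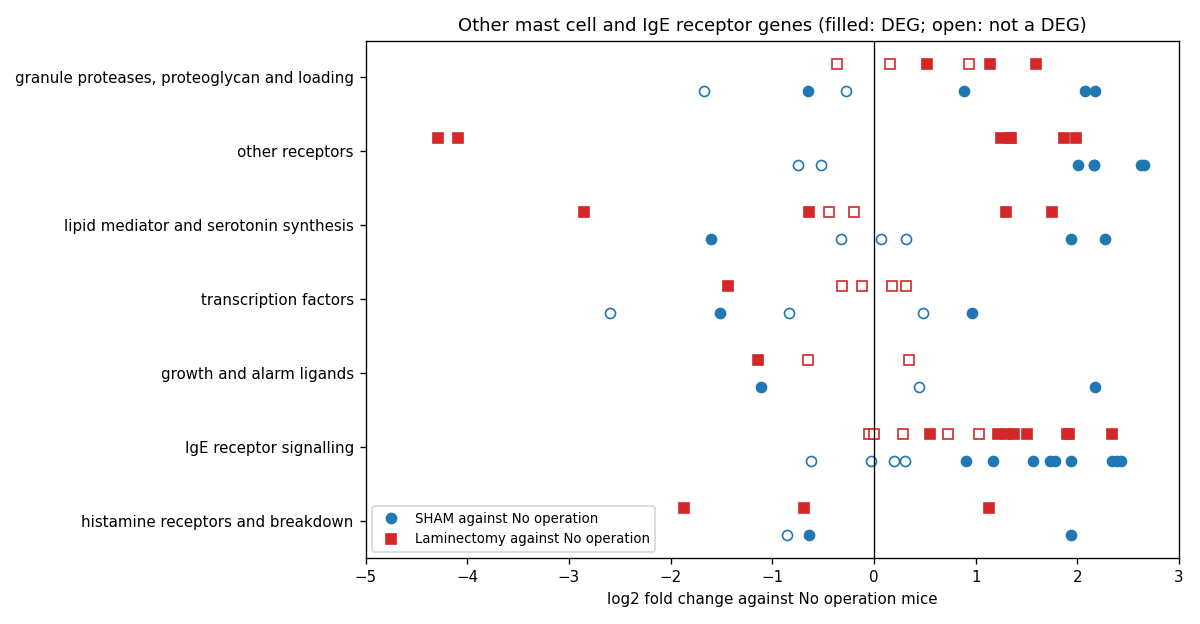
Log2 fold change against No operation mice of the 43 tested genes of the 7 other lists, circles for SHAM and squares for Laminectomy; filled symbols are DEGs. The receptor row holds Mrgprb1 and Mrgprb2 at -4.29 and -4.09 after Laminectomy, far to the left of the other receptors.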

How the data were processed

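RNA was taken from paraspinal tissue of 12 mice in 3 groups of 4, named by the labels; the study's methods state 3 mice per group, and all 4 deposited were used. Per the labels and methods, the authors prepared stranded polyA libraries, read paired ends of 100 bases, aligned with STAR 2.6.1b to GRCm38 and counted with featureCounts 2.0.1, and the submitters' processing notes also name DESeq2 1.30.1. The deposited values are estimated counts per gene: 10.22% were not whole, in 2933 genes and in none of the 8 mast cell genes, by a step not given in the sources used here. They had been taken for whole counts when the tests were planned, and were rounded. Totals were 16802988 to 18077863 per mouse.

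edgeR 4.0.16 (R 4.3.3) was fitted on all 12 mice, with filterByExpr by group (14765 genes kept, 4231 removed), TMM scaling (factors 0.849 to 1.13) and the quasi-likelihood test. DEGs needed a Benjamini-Hochberg adjusted p under 0.05 with a log2 fold change over 0.5 in size. Log2 CPM used a prior count of 2. Single values had a two-sided exact permutation test. Alternatives were DESeq2 1.42.0, other scalings, filters and fold limits, the replicate block and each mouse left out. The scripts were tested on simulated data. The labels number the samples without saying that each came from a separate animal, so p-values measure only the spread between these samples, which may be technical. With featureCounts at its defaults strand was not used in counting.

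All 8 mast cell genes are named, with up to 3 DEGs of the largest fold per other list and comparison (at least 1 CPM in the higher group) and the 5 genes most like Cpa3. The members, lists and tests were chosen with earlier results of these data known. Exon lengths and overlaps came from GENCODE vM21, and promoters from RefSeq.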

Additional observations from a re-analysis of the deposited data

Results flagged for a closer look

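In 24 groups of 4 mice (8 genes in 3 groups), a mouse was marked where its gap to the nearest other mouse on the log2 CPM scale took up more of the group's range than Dixon's 95% critical value for 4 samples, which chance alone does in about 1 of 20 groups. Cpa3 in Laminectomy replicate 1 was 0.529 CPM, with the other Laminectomy mice at 2.35 to 2.80 CPM (ratio on log2 CPM 0.888, and 0.801 on CPM). Mcpt4 in SHAM replicate 4 was 1.01 CPM, with the other SHAM mice at 8.42 to 12.3 CPM (ratio on log2 CPM 0.844, and 0.656 on CPM). Tpsb2 in SHAM replicate 4 was 1.71 CPM, with the others at 11.2 to 13.5 CPM (ratio on log2 CPM 0.907, and 0.804 on CPM). On CPM itself none of these 3 passed that value, and 2 others did, the highest Fcer1a level, in No operation replicate 1 (0.855, against 0.821 on log2 CPM), and the highest Ms4a2 level, in Laminectomy replicate 3 (0.840, against 0.710). The values of the first 3 results without the mouse concerned stand beside them above.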

How the results depend on the processing

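The number of DEGs was 7502 in SHAM and 7183 in Laminectomy against No operation. With a minimum log2 fold change of 1 it was 4589 and 4323. Leaving out 1 mouse at a time gave 6966 to 7642 and 6534 to 7416 DEGs, with 1 to 2 and 4 to 6 of the 8 mast cell genes and 24 to 28 and 23 to 29 of the other 43; between Laminectomy and SHAM it gave 0 in every fit. In that comparison DESeq2 called 601 genes, 4 mast cell genes and 3 of the others. Requiring at least 10 counts in every mouse left 1 mast cell gene called in SHAM and 1 in Laminectomy mice, since fewer of them were tested. With a prior count of 0.5, 3 of the 5 genes most like Cpa3 remained. Scaling by library totals only moved the median log2 fold change of all genes to 0.25 in SHAM and 0.33 in Laminectomy mice, and the share of calls that were higher from 50.6% to 66.0% and from 49.8% to 69.9%. Under it Kit (log2 fold change 0.86) and Lyl1 (0.62) were called higher after Laminectomy, and the calls of Ms4a2 (-1.22), Hnmt (-0.37) and Ptgs1 (-0.33) after Laminectomy and of Hnmt (-0.40), Slc18a2 (-0.39) and Tph1 (-1.35) in SHAM were lost. These follow the shift that all genes share: relative to the median of all genes, Kit stood at 0.54 and 0.56 with and without this scaling, Ms4a2 at -1.55 and -1.54, and Hnmt after Laminectomy at -0.70 and -0.69. The other 43 genes gave 24 higher and 2 lower calls in SHAM and 23 and 6 after Laminectomy. The proteases stayed between -2.53 and -3.05. Leaving out No operation replicates 2 and 3, chosen after seeing the data, called 2 mast cell genes in SHAM (Kit and Hdc, both higher) and 6 after Laminectomy (Kit and Hdc higher, the 4 proteases lower). That fit kept the operated mice that held marrow precursor markers. With the replicate number as a block the counts of DEGs were 7442, 7153 and 0, of mast cell genes 2, 5 and 0, and of the others 25, 28 and 0; deviations correlated above 0.1 in 7 of 12 same-numbered pairs (median 0.140; all 6 of replicates 1 and 3) and in 10 of 36 other pairs (median -0.044), and since not every same-numbered pair did so the numbers were not taken to pair the mice. For 28 other named genes against No operation mice, 46 of 56 results were called. Of the 914 alternative values of these, 872 kept the call and 42 lost it, and of the 197 of the rest 5 gained one. None reversed. Leaving out a mouse leaves the ratio tests too few arrangements to pass. The low counts of Fcer1a and Ms4a2 limit what can be read from them.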
